A study of Mus musculus with 9 samples.

Results

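Polycomb group genes encode the subunits of Polycomb repressive complexes 1 and 2 (PRC1 and PRC2), and 32 of them, fixed by gene symbol among the 54232 genes of the count table, are described here. The list goes by gene symbol alone, was drawn up with earlier results of these data known, and comprises 11 genes of PRC2 (6 core, 5 accessory) and 21 of PRC1 (2 catalytic, 6 Pcgf, 4 Cbx, 3 Phc and 6 accessory). Poly(A) RNA was sequenced from naïve mESCs of the strain C57 x CBA, kept in serum and LIF (S/L medium), and from primed mEpiSCs converted from them in bFGF and Activin A (F/A medium). Each state was sampled at passage 5 (P5) and passage 15 (P15) with 2 libraries, and mouse embryonic fibroblasts (MEFs) gave 1 further library. All naïve and primed cells grew on mitomycin C-treated MEF feeders, and by the methods the C57BL6 × CBA line was OG2, 1 ESC line that carries GFP under the *Oct4* distal promoter. The labels do not say whether the 2 libraries of a group came from separate cultures, so that p-values measure the spread between these libraries, which may be technical.

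PRC2 methylates histone H3 at lysine 27 through EZH1 or EZH2, held with EED and SUZ12, and accessory proteins direct it to chromatin. PRC1 ubiquitinates histone H2A through RING1 or RNF2 (RING1B), each paired with 1 PCGF protein. In canonical PRC1 a CBX protein reads the mark that PRC2 leaves and a PHC protein links complexes together, whereas variant PRC1 carries RYBP or YAF2 in place of CBX. In pluripotent cells both complexes sit at CpG-rich promoters of developmental genes.

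The promoters of the genes that encode PRC2 are shown first, since 5 of the 6 core genes fell in primed cells while *Phf1* moved the other way from its paralog *Mtf2*. RefSeq promoters (build GRCm38.p6, 250 bases before to 50 bases after the start) matched 28 of the 32 members with 38 sequences, all but *Pcgf1*, *Cbx2*, *Rybp* and *Yaf2*. These are 300 bases each, read 5′ to 3′ on the gene's strand, at chr6:47594981-47595280 (minus strand), chr7:89980927-89981226 (minus), chr11:79992856-79993155 (plus), chr5:108065424-108065723 (plus) and chr17:26932877-26933176 (plus). Capitals mark the GC box GGGCGG, to which Sp-family factors bind, and the E2F-type site TTTGGCGC, on either strand.
Ezh2: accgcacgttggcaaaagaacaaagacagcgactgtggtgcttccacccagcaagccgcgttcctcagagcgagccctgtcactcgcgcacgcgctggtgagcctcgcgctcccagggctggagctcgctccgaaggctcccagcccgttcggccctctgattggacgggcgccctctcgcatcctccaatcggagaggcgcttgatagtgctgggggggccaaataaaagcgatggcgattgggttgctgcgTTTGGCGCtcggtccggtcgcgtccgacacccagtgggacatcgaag
Eed: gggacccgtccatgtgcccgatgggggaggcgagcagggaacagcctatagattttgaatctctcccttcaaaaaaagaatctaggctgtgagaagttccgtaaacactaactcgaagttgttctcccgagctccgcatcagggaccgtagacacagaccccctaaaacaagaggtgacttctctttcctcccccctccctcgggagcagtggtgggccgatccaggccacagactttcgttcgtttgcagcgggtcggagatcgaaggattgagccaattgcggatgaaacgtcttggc
Suz12: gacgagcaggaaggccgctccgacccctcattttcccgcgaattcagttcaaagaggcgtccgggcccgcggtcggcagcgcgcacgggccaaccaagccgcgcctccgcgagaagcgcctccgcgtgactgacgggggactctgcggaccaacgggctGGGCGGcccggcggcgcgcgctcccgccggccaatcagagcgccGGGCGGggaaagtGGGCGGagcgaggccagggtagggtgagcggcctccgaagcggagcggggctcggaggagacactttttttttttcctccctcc
Mtf2: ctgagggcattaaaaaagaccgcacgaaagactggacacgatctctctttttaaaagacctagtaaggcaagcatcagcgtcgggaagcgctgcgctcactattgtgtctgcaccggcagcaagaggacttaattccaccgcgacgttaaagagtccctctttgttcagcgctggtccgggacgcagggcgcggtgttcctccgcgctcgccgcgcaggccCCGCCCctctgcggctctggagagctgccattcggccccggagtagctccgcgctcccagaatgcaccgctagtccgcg
Phf1: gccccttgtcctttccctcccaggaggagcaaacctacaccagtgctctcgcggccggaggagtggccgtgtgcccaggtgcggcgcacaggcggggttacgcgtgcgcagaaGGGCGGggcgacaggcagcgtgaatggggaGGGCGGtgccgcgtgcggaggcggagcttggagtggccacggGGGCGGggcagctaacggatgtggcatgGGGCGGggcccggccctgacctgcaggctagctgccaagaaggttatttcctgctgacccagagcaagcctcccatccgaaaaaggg
The E2F-type site was in the *Ezh2* sequence and in 0.514% of all 32851 promoters of that length, and in no other of the 28 members searched. The GC box was in 24 of the 38 member promoters (63.2%) against 35.7% of all promoters. It occurred 3 times in *Suz12*, 4 times in *Phf1*, 1 time in *Mtf2*, and not in these windows of *Ezh2* and *Eed*. GGCGGGAA, another E2F-type site, was in promoters of *Pcgf5* and *Scmh1* (5.26% of member promoters, 2.19% of all). TTTCGCGC and the ETS site CCGGAAGT were in none of the 38 member promoters (0.323% and 3.89% of all). GGGCGG and GGCGGGAA can share letters. Member promoters were rich in CpG, with a median of 24 CpG in a gene's richest promoter (range 9 to 54) against 8 over 27025 genes. Those printed held 31 (*Ezh2*), 17 (*Eed*), 41 (*Suz12*), 30 (*Mtf2*) and 24 (*Phf1*). These matches describe letters, and binding was not measured.

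Library sizes were 14378051 to 20985136 counts in naïve and primed cells and 25646547 in MEFs, and levels are given as CPM, which are counts scaled to a common library size with TMM factors. All 6 naïve marker genes were lower and all 6 primed marker genes were higher in primed cells at both passages. The 20 fibroblast markers were detected in every library, with a median ratio to MEFs of 15.5% to 28.1%, and their summed level was 7178 and 7233 CPM in naïve and 4655 and 4556 CPM in primed cells at P5. At P15 it was 12688 and 13306 CPM in naïve cells and 11865 and 11491 CPM in primed cells, against 70093 CPM in MEFs. Single markers spread widely, from 2.77% (*Acta2*) to 391% (*Dcn*) of MEF, both in primed cells at P15. The median or lowest of these ratios, called feeder share below, is a setting and not a measured fraction of feeder RNA. The methods do not state whether feeders were removed before RNA was extracted. In bulk RNA, fewer cells of a type and less RNA per cell cannot be told apart.

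The first comparison asked how the Polycomb genes differ between primed and naïve cells. Primed mEpiSCs carried less RNA of most PRC2 genes, and in several PRC1 families 1 paralog was lower while another was higher. At P5, 10 of the 32 members were higher and 15 lower in primed cells (adjusted p under 0.01), where 31.2% of all 16482 genes tested were higher and 31.1% lower. The share of members that were higher, 31.2%, was thus that of all genes, and 46.9% were lower. At P15, 6 were higher and 17 lower, which is 18.8% and 53.1% of the members beside 28.2% and 28.4% of 15733 genes. Library size alone as the scaling, in place of TMM, gave 16 higher and 14 lower at P5, where 41.3% and 21.5% of all genes were, and 8 and 13 at P15, beside 33% and 23.1%. With a fold change of at least 2 as well, 9 members (28.1%) passed at P5 and 7 (21.9%) at P15, near the 22.3% and 23.2% of all genes that did so in either direction. The median log2 fold change over the members was −0.11 at P5 and −0.28 at P15, where the median of all genes was 0.0078 and −0.0039. Split by complex, PRC2 had 2 genes higher and 8 lower at P5 and 1 higher and 9 lower at P15, with medians of −0.57 and −0.60. PRC1 had 8 higher and 7 lower at P5 and 5 higher and 8 lower at P15, with medians of 0.15 and 0.046. At P5, 31.2% of all genes were higher and 31.1% lower, so that calls in both directions were common in general. Opposite calls within PRC1 families were not compared with those in other gene families.

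Of the 32, 6 were higher at both passages (*Phf1*, *Ring1*, *Cbx2*, *Cbx6*, *Phc2* and *Yaf2*). Another 15 were lower at both (*Ezh2*, *Eed*, *Suz12*, *Rbbp4*, *Rbbp7*, *Jarid2*, *Mtf2*, *Phf19*, *Rnf2*, *Pcgf2*, *Pcgf6*, *Cbx7*, *Phc1*, *Rybp* and *L3mbtl2*). *Ezh1*, *Bmi1*, *Cbx8* and *Phc3* passed at P5 alone, all higher, and *Aebp2* and *Pcgf3* at P15 alone, both lower. *Pcgf1*, *Pcgf5*, *Bcor*, *Scmh1* and *Scml2* passed at neither. How many of all genes were called the same way at both passages was not counted. The 2 libraries of a group lay close together, with a median coefficient of variation of 2.44% to 4.31% over members at 10 CPM or more, so that changes far below 2-fold could pass. At P5 the weakest call was *Cbx8* (edgeR adjusted p = 0.00574) and the nearest member that did not pass was *Bcor* (edgeR adjusted p = 0.0148). At P15 these were *Cbx6* (edgeR adjusted p = 0.00464) and *Ezh1* (edgeR adjusted p = 0.0215).

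**Figure D1:**
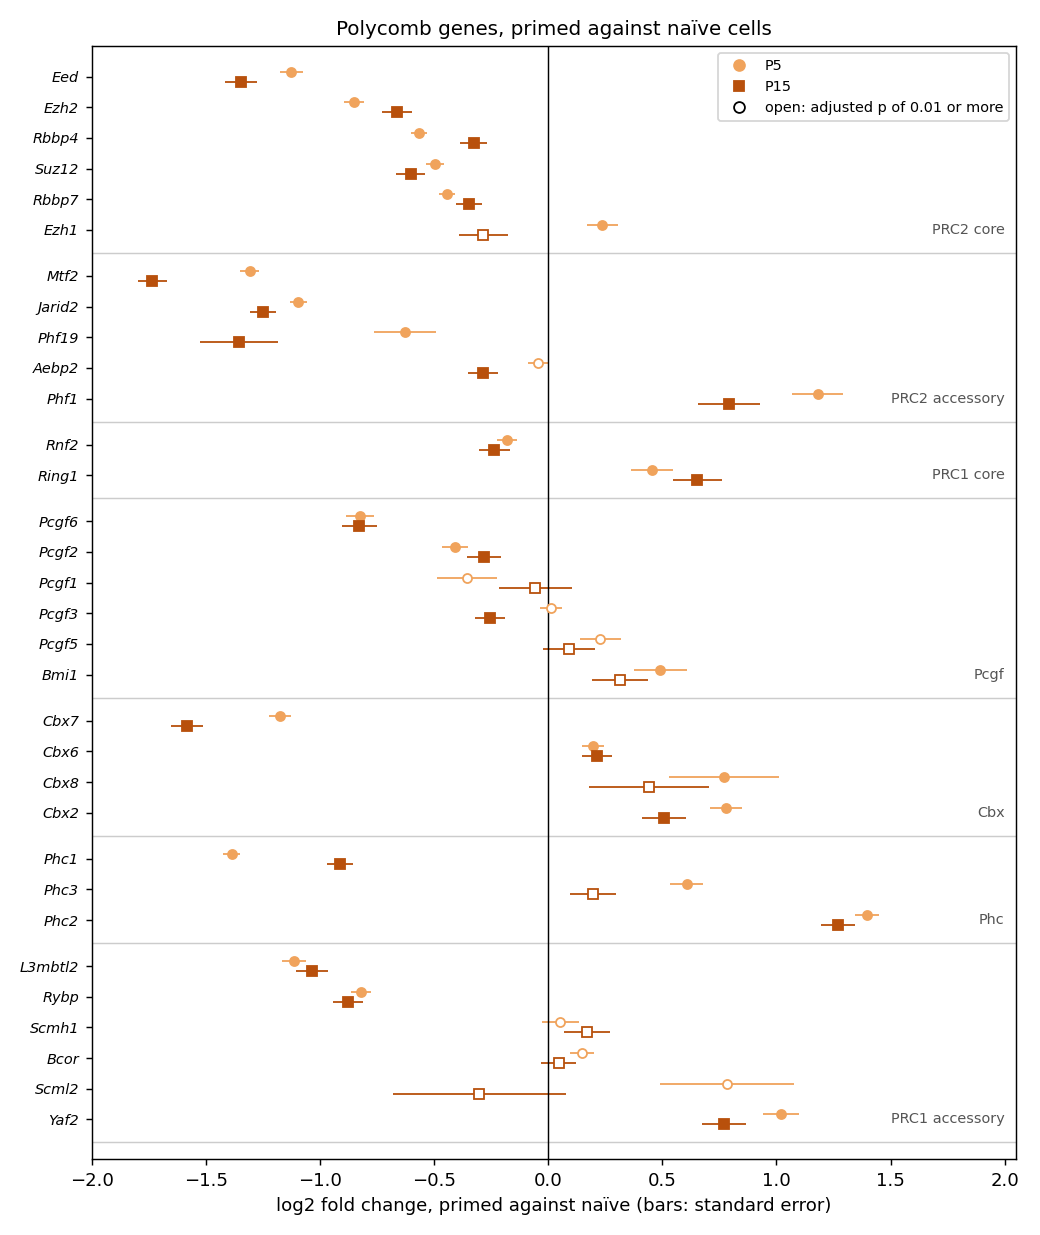
Log2 fold change of primed against naïve cells for the 32 members by subgroup, at P5 (circles) and P15 (squares), with bars for the standard error and open symbols for an adjusted p of 0.01 or more. Most PRC2 genes lie left of 0 at both passages, while *Phf1*, *Phc2*, *Yaf2*, *Cbx2* and *Ring1* lie right of 0.

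Among the core genes of PRC2, *Ezh2* (ENSMUSG00000029687, chromosome 6, 47530139 to 47595341, GRCm38) encodes the catalytic subunit that prevails in dividing cells. At P5 it was at 174 and 179 CPM in naïve mESCs and 99.5 and 91.6 CPM in primed mEpiSCs, and at P15 at 159 and 171 CPM in naïve mESCs and 99.96 and 111 CPM in primed mEpiSCs. Primed libraries lay below every naïve library, and MEFs were lower still at 53.4 CPM. The log2 fold change was −0.85 (standard error 0.0448, edgeR adjusted p = 1.85e-16) at P5 and −0.66 (standard error 0.0657, edgeR adjusted p = 4.46e-11) at P15. Its paralog *Ezh1* (ENSMUSG00000006920, chromosome 11, 101191115 to 101226463), the catalytic subunit with the weaker activity, did not follow. At P5 it was at 34.0 and 37.0 CPM in naïve mESCs and 41.0 and 40.7 CPM in primed mEpiSCs, and at P15 at 23.3 and 26.3 CPM in naïve mESCs and 19.7 and 21.4 CPM in primed mEpiSCs. The primed libraries were above the naïve ones at P5, with a log2 fold change of 0.24 (standard error 0.0687, edgeR adjusted p = 0.00308). This call did not hold in 8 of the 13 alternative settings, with 0.15 without naïve P5 replicate 1, 0.26 without primed P5 replicate 1 and 0.27 without primed P5 replicate 2. At P15 the value was −0.28 (standard error 0.109, edgeR adjusted p = 0.0215), which did not pass.

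*Eed* (ENSMUSG00000030619, chromosome 7, 89954654 to 89980983) encodes the subunit that binds the methylated lysine and stimulates the enzyme. It was at 111 and 115 CPM in naïve mESCs and 48.7 and 52.6 CPM in primed mEpiSCs at P5. At P15 it was at 119 and 127 CPM in naïve mESCs and 49.98 and 47.3 CPM in primed mEpiSCs, with 39.2 CPM in MEFs. The groups did not overlap. With TMM scaling *Eed* was more than 2-fold lower in primed cells, whereas library size alone gave −0.92 on the log2 scale at P5. Between the states it changed on the log2 scale by −1.13 (standard error 0.0516, edgeR adjusted p = 7.17e-18) at P5 and −1.35 (standard error 0.0704, edgeR adjusted p = 6.83e-19) at P15. *Suz12*, the scaffold of the complex, changed less, from 204 to 214 CPM over the naïve libraries to 133 to 150.0 CPM over the primed ones, with log2 fold changes of −0.49 and −0.60. *Rbbp4* and *Rbbp7*, histone-binding proteins that other chromatin complexes share, were lower, at −0.57 and −0.44 at P5 and at −0.33 and −0.35 at P15 on the log2 scale. Of the exon bases of *Rbbp4*, 18.0% overlap other genes, among them *Sync*, so that its counts are less certain.

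Accessory subunits of PRC2 fall into 2 types of complex, one with a Polycomb-like protein (MTF2, PHF1 or PHF19), which binds CpG-rich DNA, and one with JARID2 and AEBP2. *Jarid2* (ENSMUSG00000038518, chromosome 13, 44729474 to 44921643) was at 328 and 311 CPM in naïve mESCs and 144 and 149 CPM in primed mEpiSCs at P5. The P15 libraries held 362 and 362 CPM in naïve mESCs and 156 and 151 CPM in primed mEpiSCs. All primed libraries were below all naïve ones, and the MEF library held 27.5 CPM. On the log2 scale the change was −1.09 (standard error 0.0391, edgeR adjusted p = 1.65e-20) at P5 and −1.25 (standard error 0.0584, edgeR adjusted p = 2.13e-20) at P15. *Aebp2* differed little, with log2 fold changes of −0.043 at P5 (edgeR adjusted p = 0.404) and −0.29 at P15 (edgeR adjusted p = 2.79e-04). With library size alone as the scaling, its P5 value was 0.16 and passed as higher. Without primed P15 replicate 1, the P15 value was −0.23 and did not pass.

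*Mtf2* (ENSMUSG00000029267, chromosome 5, 108065674 to 108109004), the most abundant Polycomb-like gene in naïve cells, was at 228 and 223 CPM in naïve mESCs and 90.9 and 87.2 CPM in primed mEpiSCs at P5. By P15 the levels were 235 and 239 CPM in naïve mESCs and 71.0 and 72.4 CPM in primed mEpiSCs, with 27.6 CPM in MEFs. The naïve libraries agreed closely across passages, and the primed libraries at P15 were the lowest of the 8. Its log2 fold change amounted to −1.31 (standard error 0.0419, edgeR adjusted p = 1.10e-21) at P5 and −1.73 (standard error 0.0634, edgeR adjusted p = 1.09e-23) at P15, the lowest value of any member there. *Phf19* (ENSMUSG00000026873, chromosome 2, 34893757 to 34914026) was at lower levels, 11.1 and 11.5 CPM in naïve mESCs and 7.26 and 7.04 CPM in primed mEpiSCs at P5 and 12.0 and 12.3 CPM in naïve mESCs and 4.93 and 4.66 CPM in primed mEpiSCs at P15. Again no primed library reached a naïve one. Log2 fold changes were −0.63 (standard error 0.135, edgeR adjusted p = 1.50e-04) at P5 and −1.35 (standard error 0.171, edgeR adjusted p = 1.11e-08) at P15.

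*Phf1* (ENSMUSG00000024193, chromosome 17, 26933052 to 26937908), the third Polycomb-like gene, went the opposite way. It was at 8.70 and 9.70 CPM in naïve mESCs and 20.7 and 20.1 CPM in primed mEpiSCs at P5 and at 9.58 and 10.4 CPM in naïve mESCs and 18.2 and 16.7 CPM in primed mEpiSCs at P15. Every primed library was above every naïve one, and the MEF library was higher than all at 30.0 CPM. This gave a log2 fold change of 1.18 (standard error 0.111, edgeR adjusted p = 1.05e-10) at P5 and 0.79 (standard error 0.136, edgeR adjusted p = 3.71e-06) at P15. With MEF counts taken off at the median ratio of the fibroblast markers, these values were 1.90 and 1.27. Exons of *Cuta* and another gene overlap 39.3% of the exon bases of *Phf1*, and how reads there were assigned is not given in the sources used here.

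**Figure D2:**
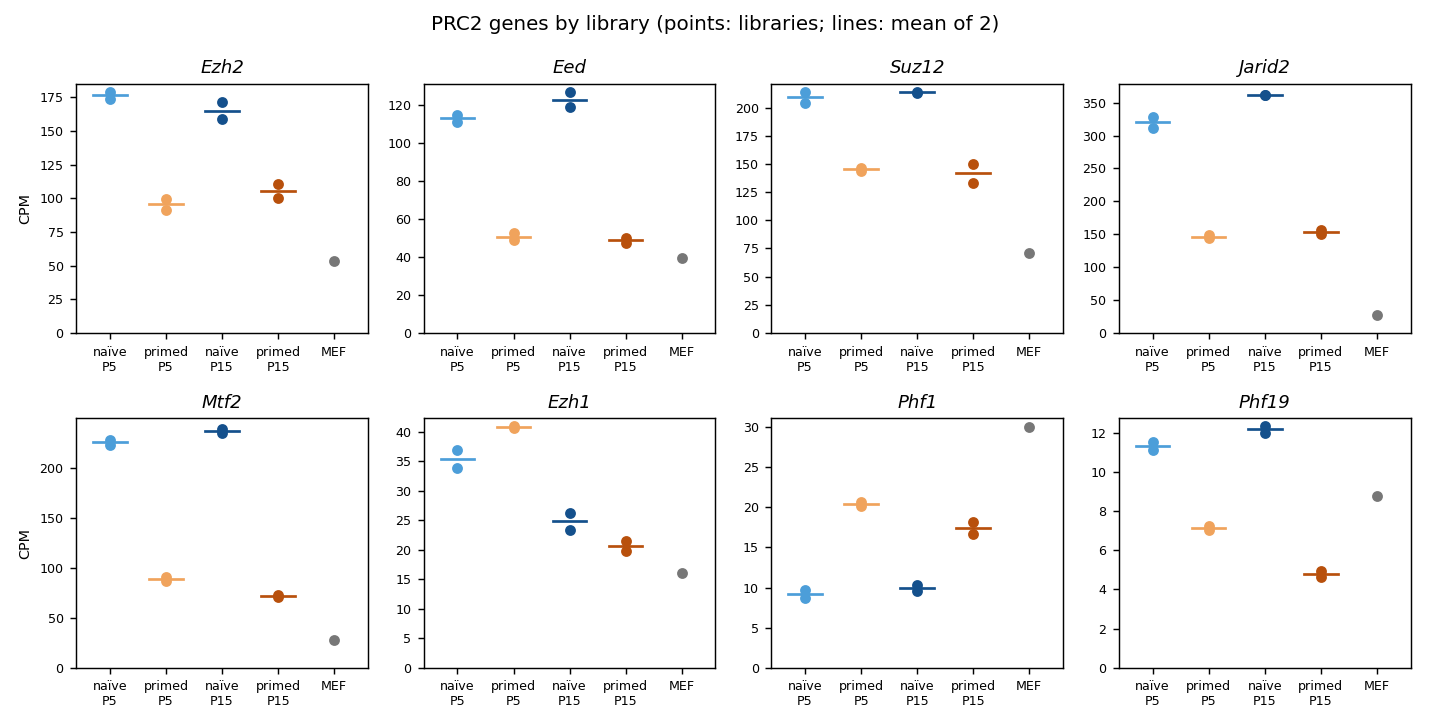
CPM of 8 PRC2 genes in each of the 9 libraries, with points for libraries and lines for the mean of 2; each axis starts at 0. *Ezh2*, *Eed*, *Suz12*, *Jarid2*, *Mtf2* and *Phf19* are lower and *Phf1* is higher in primed cells at both passages, and *Ezh1* is lowest in primed cells at P15 among the naïve and primed groups.

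The catalytic genes of PRC1 also diverged, by less. *Ring1* (ENSMUSG00000024325, chromosome 17, 34020792 to 34024680), 1 of the 2 ubiquitin ligases, was at 17.4 and 17.4 CPM in naïve mESCs and 23.7 and 22.9 CPM in primed mEpiSCs at P5. At the later passage it was at 16.8 and 17.7 CPM in naïve mESCs and 27.6 and 27.0 CPM in primed mEpiSCs, with 37.4 CPM in MEFs. Groups did not overlap, and the log2 fold change was 0.45 (standard error 0.0915, edgeR adjusted p = 6.77e-05) at P5 and 0.65 (standard error 0.108, edgeR adjusted p = 2.20e-06) at P15. With the median feeder share taken off it was 0.68 and 0.91. *Rnf2*, the ligase gene with more RNA per length in every library, was lower, at −0.18 on the log2 scale at P5 (edgeR adjusted p = 5.76e-04) and −0.24 at P15 (edgeR adjusted p = 0.00242). Library size alone gave 0.021 at P5, on the other side of 0 and not past the threshold. The P5 call of *Rnf2* was lost in 3 of 13 settings, at −0.17 without primed P5 replicate 1 and −0.14 without primed P5 replicate 2. Its P15 call was lost in 6, among them DESeq2's Wald test and the removal of naïve P15 replicate 1 (−0.21) or primed P15 replicate 1 (−0.14).

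Pcgf genes define the PRC1 subtypes, and *Pcgf6* and *Pcgf2* were the 2 of the 6 that were lower at both passages. *Pcgf6* (ENSMUSG00000025050, chromosome 19, 47033617 to 47050906), of the variant complex with L3MBTL2, MGA and E2F6 that silences germline genes, was at 65.8 and 64.2 CPM in naïve mESCs and 36.8 and 34.9 CPM in primed mEpiSCs at P5. Levels at P15 were 69.5 and 71.9 CPM in naïve mESCs and 39.2 and 41.0 CPM in primed mEpiSCs. Primed levels were below naïve levels in every library, and MEFs had 12.7 CPM. The log2 fold change was −0.82 (standard error 0.0606, edgeR adjusted p = 4.66e-13) at P5 and −0.83 (standard error 0.0767, edgeR adjusted p = 7.23e-12) at P15. *Pcgf2* (Mel18) and *Bmi1* are alternative partners in canonical PRC1. *Pcgf2* was lower, at −0.41 on the log2 scale at P5 and −0.28 at P15, though its P15 call was lost in 5 of 13 settings, at −0.24 without naïve P15 replicate 1 and −0.24 without primed P15 replicate 1. *Bmi1* was higher by 0.49 at P5 (edgeR adjusted p = 4.17e-04), with 0.31 at P15 not passing, from 10.3 to 17.9 CPM over naïve to 15.1 to 22.7 CPM over primed libraries. MEFs held 53.0 CPM of *Bmi1*, and with the median feeder share taken off its log2 fold change was 1.63 at P5 and 0.24 at P15. Taken off at the lowest marker ratio instead, the feeder share left 0.76 at P5 and 0.48 at P15, and both passed. Without naïve P5 replicate 2 the P5 value of *Bmi1* was 0.36 and did not pass. *Pcgf3*, lower at P15 alone (−0.25, or −0.21 and not past the threshold without primed P15 replicate 1), and *Pcgf1* and *Pcgf5*, which did not pass, complete the family.

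In the Cbx family, which reads methylated lysine 27, *Cbx7* fell while *Cbx2* and *Cbx6* rose. *Cbx7* (ENSMUSG00000053411, chromosome 15, 79915807 to 79971119), the Cbx gene known to prevail in mESCs, was at 154 and 159.8 CPM in naïve mESCs and 70.0 and 65.8 CPM in primed mEpiSCs at P5. Later, at P15, it stood at 132 and 135 CPM in naïve mESCs and 46.4 and 43.5 CPM in primed mEpiSCs, and it was nearly absent from MEFs at 1.83 CPM. The groups were far apart, with the primed libraries at P15 lowest. Between the states it changed on the log2 scale by −1.17 (standard error 0.0466, edgeR adjusted p = 2.14e-19) at P5 and −1.58 (standard error 0.0699, edgeR adjusted p = 4.12e-21) at P15. *Cbx2*, an alternative reader, was at 26.1 to 27.5 CPM in naïve and 34.9 to 45.7 CPM in primed libraries, with log2 fold changes of 0.78 and 0.51. MEFs held 13.3 CPM of it, below the naïve level. *Cbx6* rose by 0.20 and 0.21 only. Its P5 call was lost in 3 of 13 settings, at 0.12 without naïve P5 replicate 2, and its P15 call in 6, at 0.18, 0.19 and 0.22 without naïve P15 replicate 1, naïve P15 replicate 2 and primed P15 replicate 1. MEFs held 340.1 CPM of *Cbx6*, and taking off the median feeder share turned its P15 value to −0.31, whereas the lowest marker ratio gave 0.41, still called higher. *Cbx8* was low throughout, at 1.93 to 3.33 CPM and 3.67 to 4.77 CPM, with log2 fold changes of 0.77 at P5, which passed, and 0.44 at P15, which did not. The P5 call of *Cbx8* was lost in 6 of 13 settings, DESeq2's Wald test among them, with 0.40 without naïve P5 replicate 2, 0.91 without primed P5 replicate 1 and 0.67 without primed P5 replicate 2.

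The Phc genes, whose products polymerize and cluster Polycomb sites, also diverged. *Phc1* (ENSMUSG00000040669, chromosome 6, 122317731 to 122340561) was at 552 and 578 CPM in naïve mESCs and 208 and 214 CPM in primed mEpiSCs at P5. At P15 it was at 507 and 508 CPM in naïve mESCs and 275 and 269 CPM in primed mEpiSCs, with 46.7 CPM in MEFs. Primed cells held less than naïve cells in every library, and more at P15 than at P5. Its log2 fold change amounted to −1.39 (standard error 0.0364, edgeR adjusted p = 7.47e-24) at P5, the lowest of any member there, and −0.91 (standard error 0.0557, edgeR adjusted p = 6.54e-17) at P15. *Phc2* (ENSMUSG00000028796, chromosome 4, 128654702 to 128752881) was at 47.9 and 45.6 CPM in naïve mESCs and 124 and 117 CPM in primed mEpiSCs at P5 and at 56.7 and 63.1 CPM in naïve mESCs and 156 and 136 CPM in primed mEpiSCs at P15. No naïve library reached a primed one, and MEFs had 164 CPM. Its log2 fold change, the highest of any member at each passage, was 1.40 (standard error 0.0514, edgeR adjusted p = 3.45e-20) at P5 and 1.27 (standard error 0.0733, edgeR adjusted p = 1.33e-17) at P15. With the median feeder share taken off, the *Phc2* values were 2.27 and 1.93. *Phc3* was higher by 0.61 at P5, and its P15 value of 0.20 did not pass.

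Of the other PRC1 genes, *Rybp* and *Yaf2* encode alternative subunits of variant PRC1 that stimulate the ligase. *Yaf2* (ENSMUSG00000022634, chromosome 15, 93284278 to 93336935) was at 19.2 and 18.2 CPM in naïve mESCs and 37.4 and 36.7 CPM in primed mEpiSCs at P5. The P15 libraries held 26.9 and 22.1 CPM in naïve mESCs and 41.3 and 42.5 CPM in primed mEpiSCs, with 39.4 CPM in MEFs. All primed libraries were above all naïve ones. This gave a log2 fold change of 1.02 (standard error 0.0802, edgeR adjusted p = 2.18e-12) at P5 and 0.77 (standard error 0.0975, edgeR adjusted p = 1.20e-08) at P15. *Rybp* moved the other way, from 159 to 166 CPM in naïve to 86.5 to 92.1 CPM in primed libraries, by −0.82 and −0.88. A pseudogene, *Rybp-ps*, held 1039 counts over all libraries beside 19202 of *Rybp*, and reads could be shared between them. *L3mbtl2* (ENSMUSG00000022394, chromosome 15, 81663889 to 81688315), of the PCGF6 complex, was at 97.0 and 103 CPM in naïve mESCs and 45.7 and 44.5 CPM in primed mEpiSCs at P5 and 105 and 104 CPM in naïve mESCs and 49.8 and 52.9 CPM in primed mEpiSCs at P15. Primed libraries were again below naïve ones, with 15.8 CPM in MEFs. On the log2 scale it changed by −1.11 (standard error 0.0534, edgeR adjusted p = 2.12e-17) at P5 and −1.04 (standard error 0.0702, edgeR adjusted p = 1.37e-15) at P15, with 17.2% of its exon bases shared with *Chadl*. The PCGF1 partner *Bcor* and the SAM-domain genes *Scmh1* and *Scml2* did not pass, and *Scml2* was low, at 0.976 to 2.88 CPM.

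**Figure D3:**
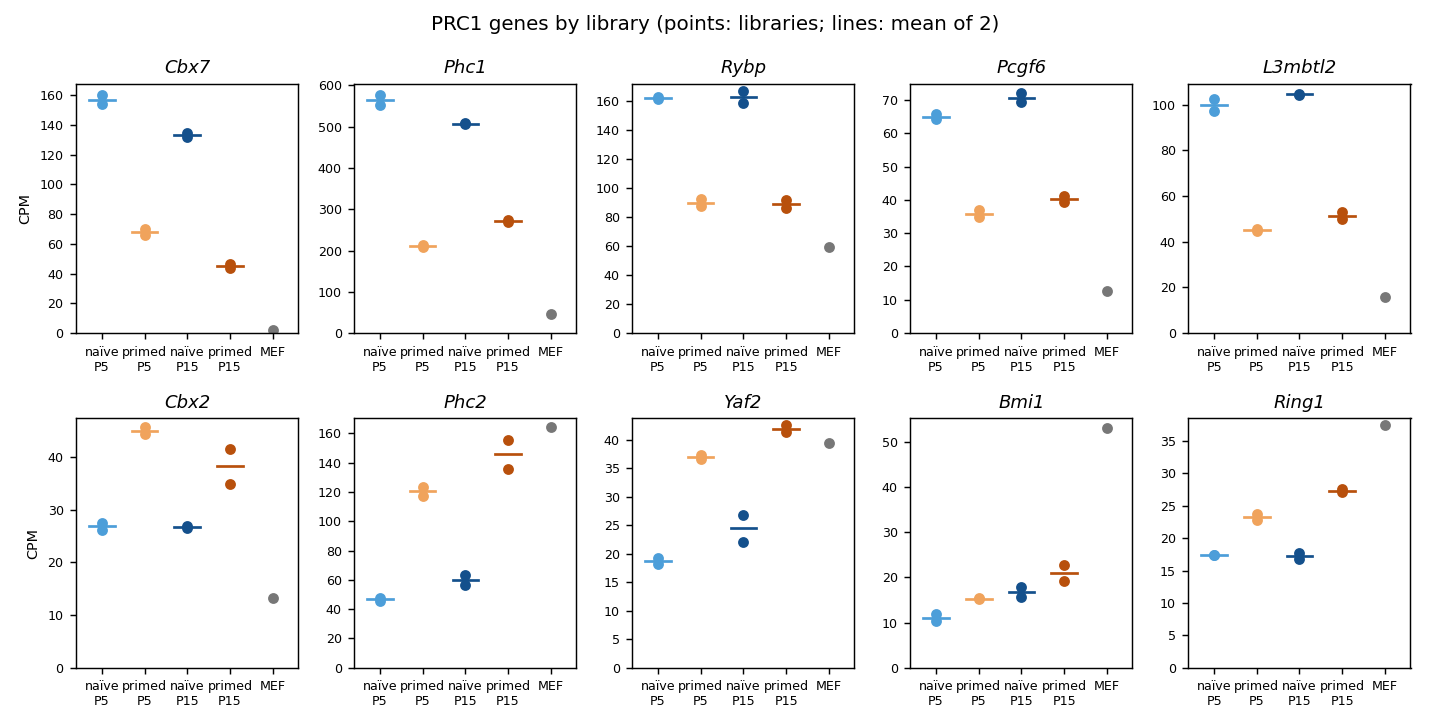
CPM of 10 PRC1 genes in each of the 9 libraries, with points for libraries and lines for the mean of 2; each axis starts at 0. *Cbx7*, *Phc1*, *Rybp*, *Pcgf6* and *L3mbtl2* (upper row) are lower in primed cells, and *Cbx2*, *Phc2*, *Yaf2* and *Ring1* (lower row) are higher at both passages.

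Which paralog prevailed was then read from counts per exon length, as shares within each family in each library, given as a description. In the Ezh pair, the share of *Ezh1* was 14.9% and 15.6% in naïve and 27.0% and 28.5% in primed cells at P5. At P15 it was 11.6% and 12.1% in naïve and 15.1% and 14.8% in primed cells, so that *Ezh2* held most of the pair everywhere. Among Polycomb-like genes, *Mtf2* made up 88.5% to 89.5% in naïve libraries and 66.8% to 69.0% in primed ones. *Phf1* took 5.58% to 6.30% and 25.4% to 28.0%, and 56.7% in MEFs. The share of *Phf19* was 4.92% to 5.18% in naïve and 5.02% to 6.22% in primed libraries, ranges that overlap.

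Shares within the Cbx family also differed between the states. *Cbx7* held 56.5% to 61.5% in naïve libraries, then 33.4% and 31.1% in primed cells at P5 and 26.8% and 24.3% at P15. *Cbx2* held 15.3% to 17.5% in naïve and 30.8% to 35.3% in primed libraries, with means at P5 in primed cells of 32.6% for *Cbx2*, 31.5% for *Cbx6* and 32.2% for *Cbx7*. There *Cbx6* and *Cbx7* stood at 21.6% and 38.2% with the median feeder share taken off, and at 48.1% and 30.1% without division by length. In MEFs *Cbx6* held 84.0%, and with the median feeder share taken off its share in primed cells at P15 was 12.2% in place of 37.7%. *Phc1* kept the largest share of its family, 90.3% to 93.1% in naïve and 66.4% to 70.8% in primed libraries, while *Phc2* held 5.51% to 8.40% and 26.8% to 29.5%. *Yaf2* held 22.0% to 29.0% of the pair with *Rybp* in naïve libraries and 50.2% to 54.7% in primed ones. Of the ligase pair, *Ring1* held 14.9% to 16.4% in naïve and 22.7% to 26.8% in primed libraries. Within the Pcgf family *Pcgf2* led in every naïve and primed library, with 30.3% to 34.5%, and *Pcgf6* held 24.1% to 25.9% in naïve and 16.7% to 17.7% in primed libraries.

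**Figure D4:**
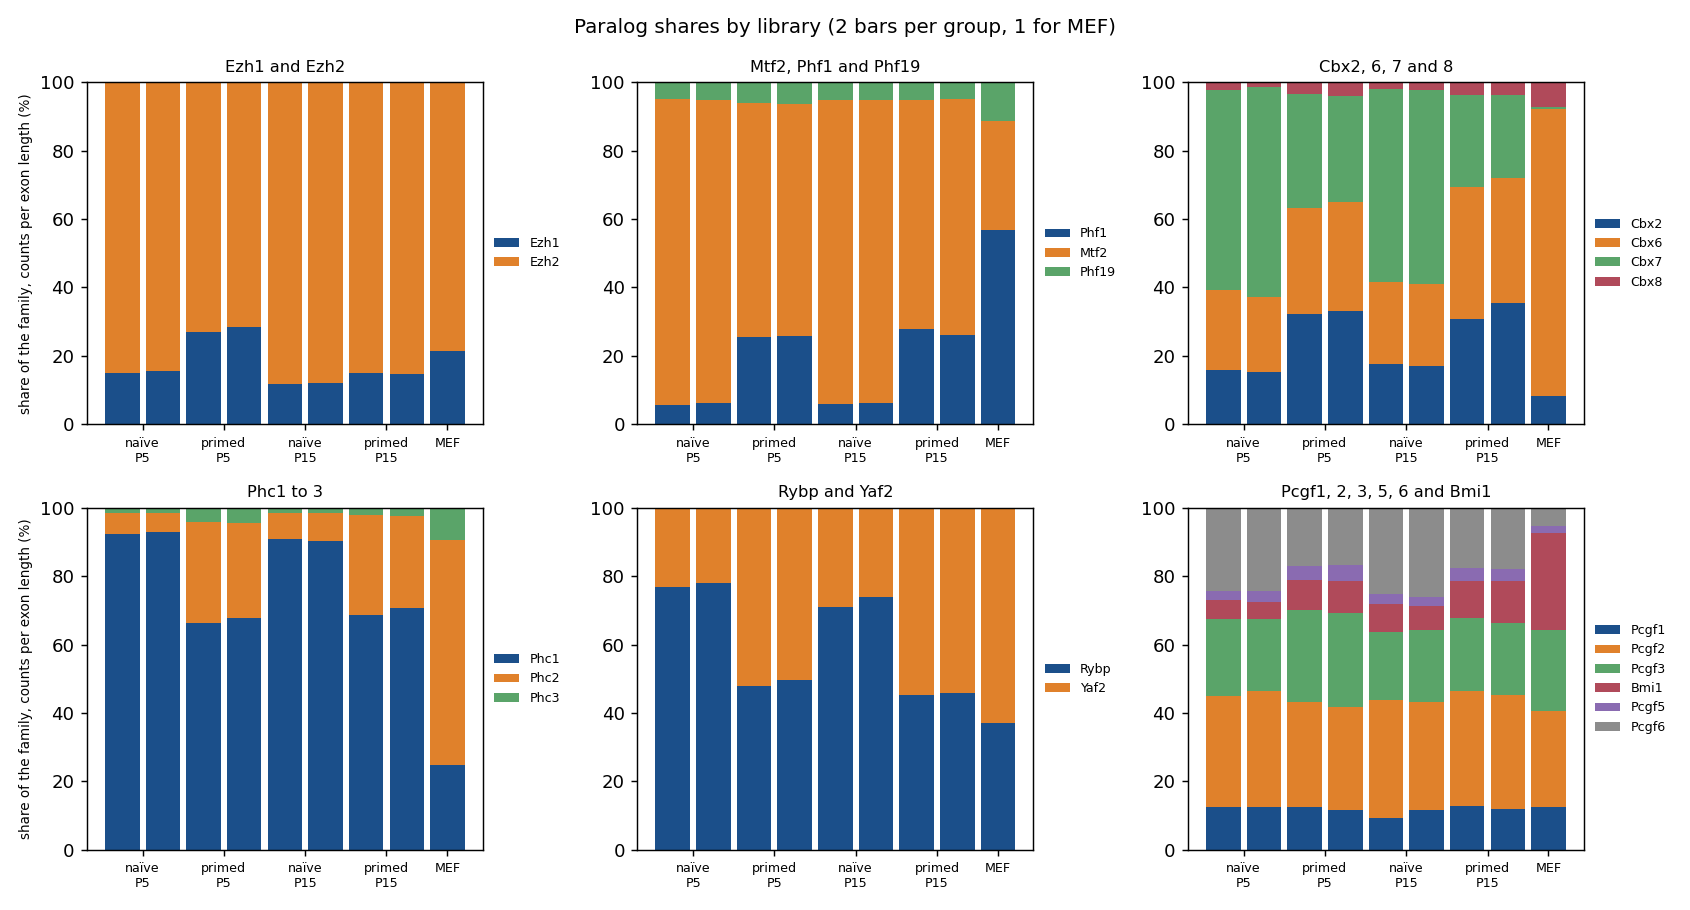
Share of each paralog in 6 families, as a percent of counts per exon length, with 1 stacked bar per library. The shares of *Cbx7*, *Phc1*, *Mtf2* and *Rybp* are smaller in primed cells, and MEFs differ from both states.

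Levels per length also ranked the members within a group, as TPM. *Rbbp7* led in all 4 naïve and primed groups and in MEFs, at 387 and 381 TPM in naïve cells at P5, and *Phc1* was next in the 4 groups at 295 and 316 TPM there. Both are far above the Pcgf and Cbx genes, of which the highest in naïve cells at P5 were *Cbx7* at 67.2 and 71.3 TPM and *Pcgf2* at 49.7 and 51.7 TPM. *Scml2* was lowest in all 4 groups, at 0.475 to 1.66 TPM. EZH1 or EZH2, EED and SUZ12, PRC2 core subunits that assemble in equal numbers, had RNA of the same order in naïve cells at P5. These were 86.7 and 91.9 TPM of *Ezh1* and *Ezh2* summed, 82.2 and 86.6 TPM of *Eed* and 122 and 119.6 TPM of *Suz12*. The core genes *Rbbp4* and *Rbbp7*, which other chromatin complexes share, were higher there, at 518 and 521 TPM summed. In primed cells at P15 the Ezh sum was 52.1 and 57.2 TPM, *Eed* 38.6 and 36.3 TPM and *Suz12* 79.8 and 89.1 TPM. In the same order, primed cells at P5 had 71.8 and 66.9, 44.8 and 47.9, and 102 and 103 TPM. Naïve cells at P15 had 73.0 and 80.2, 83.7 and 90.9, and 117 and 118 TPM. TPM carries no TMM factor, so these levels are not a test between states.

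The single MEF library was also set beside the naïve libraries, on which side it lay being given with the same share over all called genes. Of the 10 members higher at P5, 8 were higher in MEFs than in both naïve libraries, the exceptions being *Ezh1* and *Cbx2*, as were 67.1% of all genes called higher. All 15 lower at P5 were also lower in MEFs, as were 80.6% of all genes called lower. At P15 it was 5 of 6 higher (all but *Cbx2*) and 15 of 17 lower (all but *Aebp2* and *Pcgf3*), beside 71.8% and 81.2% of all genes called. MEF feeders were present in all cultures, and the summed level of the fibroblast markers was lower in primed than in naïve cells at both passages. Single markers went both ways, with 5 of 20 higher and 11 lower in primed cells at P5 and 9 higher and 6 lower at P15, where their median ratio to MEFs was 18.6% and 19.3% in naïve and 27.7% and 28.1% in primed cells. With that median taken off each library, *Phf1*, *Ring1*, *Cbx2*, *Phc2* and *Yaf2* passed as higher at both passages, and *Cbx6* at P5 alone. At the lowest marker ratio these 6 passed as higher at both passages, with 1.37 and 0.98 for *Phf1* and 1.62 and 1.44 for *Phc2*.

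The second comparison asked how the same genes differ between P15 and P5 within a state. In naïve cells 4 members were higher and 3 lower at P15, which is 12.5% and 9.38% of the members beside 5.08% and 6.79% of 16926 genes, and none changed by 2-fold. *Jarid2*, *Bmi1*, *Phc2* and *Yaf2* were higher, by 0.17, 0.58, 0.35 and 0.38 on the log2 scale. *Ezh1*, *Cbx7* and *Phc1* were lower, at −0.52, −0.24 and −0.16. Fibroblast markers also increased, 11 of 20 being higher and 1 lower at P15 in naïve cells. Taking off the median feeder share left 2 members higher and 1 lower, where 2.31% and 4.09% of all genes were. *Bmi1* then stood at 1.46, or at 0.73 with the lowest marker ratio. Leaving out 1 naïve library left 1 library in a group, so counts of calls are not given for it. Of the 7 calls, that of *Ezh1* held in all 12 alternative settings. *Jarid2* and *Phc1* lost theirs in 8, the replicate block and the removal of any 1 naïve library among them, with 0.13 to 0.21 and −0.19 to −0.13 over those removals. *Yaf2* lost its call in 6 settings, at 0.42 and 0.33 without naïve P5 replicates 1 and 2 and 0.23 without naïve P15 replicate 1. Without naïve P5 replicate 2, *Bmi1* (0.48), *Cbx7* (−0.22) and *Phc2* (0.31) did not pass either, nor did *Bmi1* (0.49) and *Cbx7* (−0.22) without naïve P15 replicate 1 and *Phc2* (0.27) without naïve P15 replicate 2.

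In primed cells 3 members were higher and 9 lower at P15 (9.38% and 28.1%), where 22.4% and 21.4% of all genes were. *Bmi1*, *Phc1* and *Phc2* were higher, by 0.42, 0.33 and 0.24. Lower were *Ezh1*, *Aebp2*, *Mtf2*, *Phf19*, *Pcgf3*, *Cbx2*, *Cbx7*, *Phc3* and *Bcor*, with log2 fold changes between −1.02 (*Ezh1*) and −0.22 (*Aebp2*). *Ezh1* was the one member past 2-fold, at 41.0 and 40.7 CPM at P5 and 19.7 and 21.4 CPM at P15. The log2 fold change was −1.02 (standard error 0.0867, edgeR adjusted p = 1.75e-11) in primed cells and −0.52 (standard error 0.0875, edgeR adjusted p = 4.72e-05) in naïve cells. *Cbx7* was the other member lower with passage in both states, at −0.63 (standard error 0.0622, edgeR adjusted p = 5.01e-10) in primed and −0.24 (standard error 0.0535, edgeR adjusted p = 0.00141) in naïve cells. Of the fibroblast markers, 16 of 20 were higher and 1 lower at P15 in primed cells. With the median feeder share taken off, *Bmi1* was at 0.084 and no longer passed, while the lowest marker ratio gave 0.48, which did. Library size alone gave 1 higher and 14 lower, where 14.8% and 28.8% of all genes were. The calls of *Phc1*, *Ezh1*, *Mtf2*, *Pcgf3*, *Cbx7* and *Phc3* held in all 12 settings. That of *Cbx2* was lost in 7, with −0.31 and −0.26 without primed P5 replicates 1 and 2 and −0.15 without primed P15 replicate 1. That of *Bmi1* was lost in 6, with 0.39 and 0.43 without primed P5 replicates 1 and 2 and 0.31 without primed P15 replicate 2. *Phc2* lost its call in 4 settings and *Aebp2* in 2, both without primed P5 replicate 2 (0.19 and −0.19) or primed P15 replicate 1 (0.14 and −0.19). *Phf19* and *Bcor* lost theirs in 3 each, without primed P5 replicate 1 (−0.60 and −0.25) or primed P15 replicate 2 (−0.56 and −0.18).

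**Figure D5:**
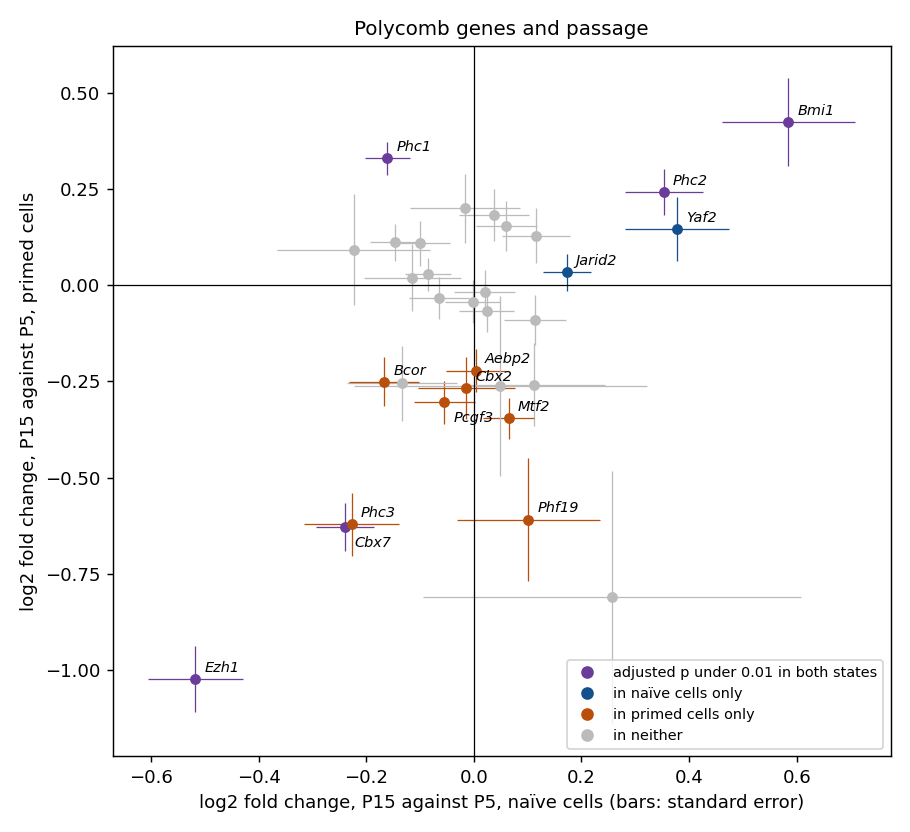
Log2 fold change of P15 against P5 in naïve cells (horizontal) and primed cells (vertical) for the 32 members, with bars for the standard error; labelled members had an adjusted p under 0.01 in 1 state or both. *Ezh1* and *Cbx7* are lower with passage in both states, *Bmi1* and *Phc2* higher in both, and *Phc1* lower in naïve and higher in primed cells.

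The third comparison tested whether the primed-to-naïve difference itself changed between passages. It did for 6 members, 2 with a higher and 4 with a lower value at P15, which is 6.25% and 12.5% beside 13.3% and 10.8% of all genes. The difference grew for *Mtf2*, whose log2 effect at P15 minus that at P5 was −0.41 (standard error 0.0718, edgeR adjusted p = 3.28e-05), for *Cbx7* at −0.39 (standard error 0.0822, edgeR adjusted p = 3.66e-04) and for *Phf19* at −0.71 (standard error 0.208, edgeR adjusted p = 0.00807). It shrank for *Phc1*, at 0.49 (standard error 0.0606, edgeR adjusted p = 1.14e-07), and for *Rbbp4*, at 0.26 (standard error 0.0667, edgeR adjusted p = 0.00297). For *Ezh1*, which was higher in primed cells at P5, the value was −0.51 (standard error 0.124, edgeR adjusted p = 0.00176). The other 26 members did not pass this test. Library size alone gave 1 higher and 9 lower, where 8.28% and 15.3% of all genes were. The calls of *Mtf2* and *Phc1* held in all 15 settings, and those of *Cbx7*, *Ezh1*, *Rbbp4* and *Phf19* were lost in 1, 4, 5 and 12. *Phf19* lost its call without any 1 of the 8 libraries (−0.75 to −0.66), *Ezh1* without naïve P5 replicate 1, naïve P15 replicate 2 or primed P15 replicate 1 (−0.44 to −0.41), and *Rbbp4* without naïve P5 replicate 2, either primed P5 library or naïve P15 replicate 1 (0.19 to 0.26).

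Genes around the complexes were described by lists written for this purpose with earlier results of these data known. Of all genes tested, 31.2% were higher and 31.1% lower at P5, and 28.2% and 28.4% at P15. Of 21 partner genes (cofactors of PRC1 and PRC2), 5 were higher and 9 lower at P5, and 7 higher and 10 lower at P15, with medians of −0.024 and −0.18. *Epop*, which joins PRC2 to Elongin B and C, was at 159.9 and 161 CPM in naïve mESCs and 34.5 and 32.2 CPM in primed mEpiSCs at P5, with a fold change on the log2 scale of −2.23 (standard error 0.0513, edgeR adjusted p = 2.82e-25), and changed by −2.36 at P15. *Usp7*, a deubiquitinase found with the PCGF1 complex, had −0.93 and −0.96, and *Wdr5*, shared with the PCGF6 complex, −0.94 and −0.81. Of 11 genes that remove the Polycomb marks or belong to the complexes that do, 2 were higher and 3 lower at P5, and 2 and 2 at P15, with medians of −0.064 and −0.087. *Foxk1* was higher by 0.69 and 0.45, *Asxl1* lower at −0.15 and −0.21, and *Usp16* at −0.18 and −0.23 did not pass.

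Developmental regulators known as Polycomb targets in mESCs were the last list, which was chosen with earlier results of these data known. Since it also holds *T*, a primed marker here, its counts and medians describe the list and are not a test of Polycomb targets. Of 24, 20 could be tested at P5, with 12 higher and 2 lower in primed cells, beside 31.2% and 31.1% of all genes. At P15, 17 could be tested, with 8 higher and 3 lower, beside 28.2% and 28.4% of all genes. The medians were 2.20 and 1.24. With 1 gene near 0 in naïve or primed cells set to its bound, the P5 median was the same. Genes too low in all libraries of a passage were not tested, so that these counts do not cover the list. *Foxa2*, an endoderm factor, was at 0.646 and 0.594 CPM in naïve mESCs and 49.2 and 47.0 CPM in primed mEpiSCs at P5, with a fold change on the log2 scale of 6.30 (standard error 0.150, edgeR adjusted p = 6.24e-25). *Eomes*, of the primitive streak, was at 6.22 and 6.68 CPM in naïve mESCs and 35.8 and 42.3 CPM in primed mEpiSCs, with a fold change on the log2 scale of 2.63 (standard error 0.108, edgeR adjusted p = 4.79e-19). The mesoderm gene *T* (Brachyury), also a primed marker, was at 1.24 and 1.09 CPM in naïve mESCs and 99.3 and 96.6 CPM in primed mEpiSCs. *Pax6* and *Olig2*, neural genes named here after their values were seen, were the 2 lower at P5, at −2.71 and −1.02. The 3 lower at P15 were *Pax6* at −4.77, *Olig2* at −3.24 and *Hand1* at −3.76. Primed libraries at P15 held only 7 and 4 counts of *Pax6* and 3 and 4 of *Hand1*. With passage in primed cells, 4 of 20 listed genes were higher and 9 lower, beside 22.4% and 21.4% of all genes. Members on the X chromosome (*Rbbp7*, *Bcor* and *Scml2*) stood at −0.44, 0.15 and 0.78 on the log2 scale at P5, beside a median of 0.15 over 565 X-linked genes and 0.0032 over autosomal genes. At P15 they were −0.35, 0.046 and −0.30, beside 0.059 and −0.0051.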

How the data were processed

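RNA-seq counts of 9 libraries were used, namely 2 per state and passage and 1 of MEFs, with groups read from the sample titles. The authors trimmed reads with Cutadapt, aligned them to mm10 with HISAT2 and deposited raw counts per Ensembl gene from featureCounts. The submitters' processing notes also list DESeq2. Strand, multi-mapping and annotation release were not given in the sources used here. Names, coordinates and exon lengths came from GENCODE M21 (GRCm38), in which 67 IDs were without a name, and promoters came from RefSeq.

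CPM used TMM factors over 9 libraries, and TPM divided counts by merged exon length. Genes with at least 10 counts in at least 2 libraries of a fit were tested with edgeR 4.0.16 (R 4.3.3, limma 3.58.1) by the quasi-likelihood test, two-sided, with Benjamini-Hochberg adjustment over all genes tested and a call at an adjusted p under 0.01. Each passage was fitted on its 4 libraries, and passage effects and their difference on 8. The MEF library entered no fit. The biological coefficient of variation was 3.26% at P5, 4.79% at P15 and 4.05% over 8 libraries. A count of 3, taken as the limit behind a count of 0, equals 0.128 to 0.221 CPM by library and covers counting error only. Code was tested on simulated counts.

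Given in full are members past 2-fold in a comparison of states or of passages, the member with the smallest adjusted p of each subgroup at each passage, and *Ezh1* with *Ezh2*, and of other lists the 3 genes with the smallest adjusted p at both passages. The members and lists were chosen with earlier results of these data known. Alternatives were DESeq2 1.42.0 (size factors, Wald test), no low-count filter, library size alone, a block for replicate number (replicate block), another set of libraries in the fit, MEF counts taken off at the median or lowest marker ratio, and each library left out in turn. A crossed block was added after seeing the data. Of the partner list, *Ezhip* was not matched and is not analysed here.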

Additional observations from a re-analysis of the deposited data

Results flagged for a closer look

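The primed-to-naïve effect differed between P15 and P5 for 6 members in the fit of 8 libraries (edgeR's interaction term, adjusted p under 0.01), given as the P15 effect minus the P5 effect on the log2 scale. The value was −0.41 for *Mtf2* and 0.49 for *Phc1*, and both passed in all 15 alternative settings. For *Cbx7* it was −0.39, which did not pass with the median feeder share taken off (−0.23). For *Ezh1* it was −0.51, for *Rbbp4* 0.26 and for *Phf19* −0.71, and these did not pass in 4, 5 and 12 of 15 settings. The range of the *Phf19* value over settings was −1.15 to −0.66. With 2 libraries per group, no test for a library far from the others was run.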

How the results depend on the processing

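Of the 21 members called the same way at both passages, 18 (5 higher, 13 lower) kept that call in all 13 settings at each passage. *Cbx6*, *Pcgf2* and *Rnf2* did not. The same count over all genes was not made. Library size alone moved the median of all genes by 0.20 at P5, 0.10 at P15, −0.13 for passage in primed cells and −0.11 for the difference between effects. It gave 16 members higher and 14 lower at P5 in place of 10 and 15, 1 higher and 14 lower with passage in primed cells in place of 3 and 9, and 1 higher and 9 lower for the difference in place of 2 and 4. At P15 it gave 8 and 13 in place of 6 and 17. DESeq2's Wald test gave 6 higher at P5, where 24.1% of all genes were. With the median feeder share taken off, passage in naïve cells had 2 higher and 1 lower, where 2.31% and 4.09% of all genes were. Passage in primed cells then had 5 higher, where 19.2% of all genes were. A fit of naïve libraries alone gave 2 higher with passage, where 4.21% of all genes were. The cause was not tested.

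Among values called in the analysis as reported or in the alternative, those that reversed were 0.16 for *Aebp2* and 0.021 for *Rnf2* at P5 with library size alone, and −0.31 for *Cbx6* at P15 and −0.86 for its difference between passages with the median feeder share taken off. Values called in neither also changed sign, in 5 cases at P5, 3 at P15, 21 and 19 for passage in naïve and primed cells and 15 for the difference. With 1 library left out, the lone library of a group being assumed to vary like the others, 8 to 9 members were higher and 14 to 15 lower at P5, and 5 to 6 higher and 13 to 17 lower at P15. For passage, 0 to 2 were higher and 1 to 3 lower in naïve cells, with 0 higher and 1 lower without naïve P5 replicate 2, 1 and 1 without naïve P15 replicate 1, and 2 higher without either of the other 2, and 1 to 2 higher and 6 to 8 lower in primed cells, with 1 higher without primed P5 replicate 2. The difference had 1 to 2 higher and 2 to 4 lower, with 1 higher without naïve P5 replicate 2, primed P5 replicate 1 or 2, or naïve P15 replicate 1, and 2 lower without naïve P15 replicate 2 or primed P15 replicate 1. Shares of paralogs kept their direction between states without division by length (except *Phf19* at P15) and with the feeder share taken off, for 24 shares at each passage.

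Same-numbered naïve and primed libraries deviated from their group means with correlations of −0.13 at P5 and −0.19 at P15 across 10001 genes. Those of the 2 passages of a state did so with 0.16 in naïve and 0.16 in primed cells. With 2 libraries a group and no label that ties numbers to cultures, the numbers were not taken to pair samples. A replicate block gave 10 higher and 15 lower at P5, where 31% and 31% of all genes were. At P15 it gave 5 and 16, beside 24.8% and 25% of all genes. For passage it gave 3 and 2 in naïve cells (4.18% and 5.78% of all genes) and 3 and 9 in primed cells (21.4% and 20.3%). The difference had 2 and 3 (12.1% and 9.94% of all genes). A crossed block, chosen after seeing the data, gave 11 and 16 at P5, beside 32.4% and 32.4% of all genes. At P15 the crossed block gave 6 and 17, beside 29.9% and 30.3%. Depth limits *Scml2* and *Cbx8* most.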
